A study of Mus musculus with 12 samples.

Results

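Selenbp1 and Selenbp2 are neighbouring mouse genes for selenium-binding proteins. Each was represented by 1 probe set, so the account rests on 2 of the 17097 genes and on 2 of the 45037 probe sets that were not controls, and 0 probe sets listed both symbols. The pair was chosen with its values known, namely its large rise with dipyridyl (DP) in wild-type cells and the smaller rise in cells lacking CBP and p300. All Selenbp values below are therefore descriptions with standard deviations (SD) or standard errors (SE), and no test is attached to them.

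RNA was measured on 12 arrays, 3 for each of 4 groups, all of primary fibroblasts (MEFs) grown from mouse C57Bl/6 x 129Sv (F1) embryos at e14.5. Wild-type lines 3, 4 and 5, and lines 1, 5 and 6 that were homozygous for conditional alleles of both CBP and p300, were all infected at passage 4 with adenovirus expressing Cre recombinase. The conditional lines after Cre are called dKO here, and wild-type cells carry the same virus exposure. Every line received 100 µM DP or its ethanol vehicle for 3 h in normoxia, after earlier growth in 3% oxygen. Line 5 of wild type and line 5 of dKO are different lines that share only a number.

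Selenium-binding proteins bind selenium but are not selenoproteins, because selenocysteine is not built into their chains. The human protein SELENBP1 is a methanethiol oxidase that converts methanethiol to hydrogen sulfide, hydrogen peroxide and formaldehyde, and Selenbp2 is a close mouse paralog first described as an acetaminophen-binding protein of liver. CBP and p300 are related enzymes that acetylate histones and work as coactivators for numerous transcription factors, among them the hypoxia-inducible factors (HIF). DP chelates iron, which the prolyl hydroxylases that mark HIF-alpha subunits for degradation need, and it is used to raise HIF in normoxia.

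Both genes lie on the plus strand of chromosome 3 in GRCm38.p6 and are annotated as protein coding. Selenbp2 (gene ID 20342) spans chr3:94693573-94704406 and Selenbp1 (gene ID 20341) spans chr3:94933083-94944758. They are 228676 bases apart, with 9 annotated genes wholly between them, of which 3 are protein coding. Selenbp1 was read by probe set 1450699_PM_at and Selenbp2 by 1417580_PM_s_at. By the manufacturer's naming, the "s" marks probes that match more than 1 transcript. How much of either signal came from the paralog was not tested, so the closeness of the 2 profiles described here may include shared hybridisation.

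Since both genes moved together, the 250 bases before each RefSeq start are shown, from chr3:94932833-94933082 for Selenbp1 and chr3:94693323-94693572 for Selenbp2, GRCm38.p6, plus strand. Capitals mark ACGTG or GCGTG, the core of the element that HIF binds, on either strand, so CACGT is ACGTG read from the other strand.
Selenbp1: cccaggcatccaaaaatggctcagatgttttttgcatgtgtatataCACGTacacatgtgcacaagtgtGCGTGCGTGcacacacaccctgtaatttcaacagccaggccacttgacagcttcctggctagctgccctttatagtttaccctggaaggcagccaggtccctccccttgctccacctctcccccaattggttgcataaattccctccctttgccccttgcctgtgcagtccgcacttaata
Selenbp2: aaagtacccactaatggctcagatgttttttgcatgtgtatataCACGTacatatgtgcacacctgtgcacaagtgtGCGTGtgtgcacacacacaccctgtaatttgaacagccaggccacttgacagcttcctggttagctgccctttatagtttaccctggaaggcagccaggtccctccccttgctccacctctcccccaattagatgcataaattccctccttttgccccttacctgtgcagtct

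The promoters of the pair were alike over most of their length. Aligned with free ends, they matched in 224 of 250 columns (89.6%), with 14 mismatched and 12 gapped columns, and 12 bases at the ends stayed unaligned, among them the last bases before the Selenbp1 start. In the last 150 columns of the alignment, which lie just before that unaligned end, 143 were identical (95.3%), 7 differed and 0 held a gap, so all gaps lay further from the starts. Selenbp1 had 1 ACGTG match at 204 to 200 bases before its start, and GCGTG matches at 181 to 177 and at 177 to 173 that overlap by their shared base. Selenbp2 had ACGTG at 206 to 202 and GCGTG at 173 to 169. These letters are common: among 32851 RefSeq promoter windows of 300 bases (250 before to 50 after the start), 19.6% held ACGTG, 32.4% held GCGTG and 43.8% held either. At least as many matches of either kind as in Selenbp1 (3) were found in 8.93% of windows, and as in Selenbp2 (2) in 20.6%. Neither window held TGACGTCA (in 1.79% of all windows), TGAGTCA, whose reverse complement is TGACTCA (5.2%), or TGACNNNGC (12.4%), all searched on both strands. CG pairs numbered 5 in the Selenbp1 window and 2 in the Selenbp2 window, against a median of 7 over all windows. A match describes letters only, and no binding was measured.

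In wild-type cells Selenbp1 went from close to background to a high level within 3 h of DP. On the array's log2 scale (RMA values), its levels with ethanol were 3.87, 3.64 and 4.20 in lines 3, 4 and 5, and with DP they were 8.91, 8.80 and 9.29. All DP arrays lay far above all ethanol arrays, by at least 4.60. The change was 5.04, 5.16 and 5.09 in the 3 lines (SD 0.06, n = 3), and the fitted change was 5.10 ± 0.16 (SE), a 34.2-fold difference. It ranked 2 from the top among the 17097 genes.

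Selenbp2 did the same in wild type. Its ethanol levels were 4.06, 4.00 and 4.25 in lines 3, 4 and 5, and its DP levels were 9.09, 9.29 and 9.48. The groups were separated by at least 4.85. The change was 5.03, 5.29 and 5.23 by line (SD 0.14, n = 3), with a fitted value of 5.18 ± 0.18 (SE), or 36.4-fold, and it ranked 1 of 17097. For orientation, 4.73% of all genes were called in this comparison (limma, Benjamini-Hochberg adjusted p under 0.05), 3.05% higher and 1.67% lower, and as the comparison entered the choice of the pair nothing is read from its place there.

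These folds start near the floor of the array. Of 20 blank control probe sets, the 95th percentile was 3.28 to 3.53 over the arrays. The wild-type ethanol mean of Selenbp1 (3.91 ± 0.28 SD) was 0.38 above the highest such value of its group, and that of Selenbp2 (4.10 ± 0.13 SD) was 0.57 above it. Fold changes from a level this near background can understate the change in RNA, and how far they did so here was not tested.

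**Figure D1:**
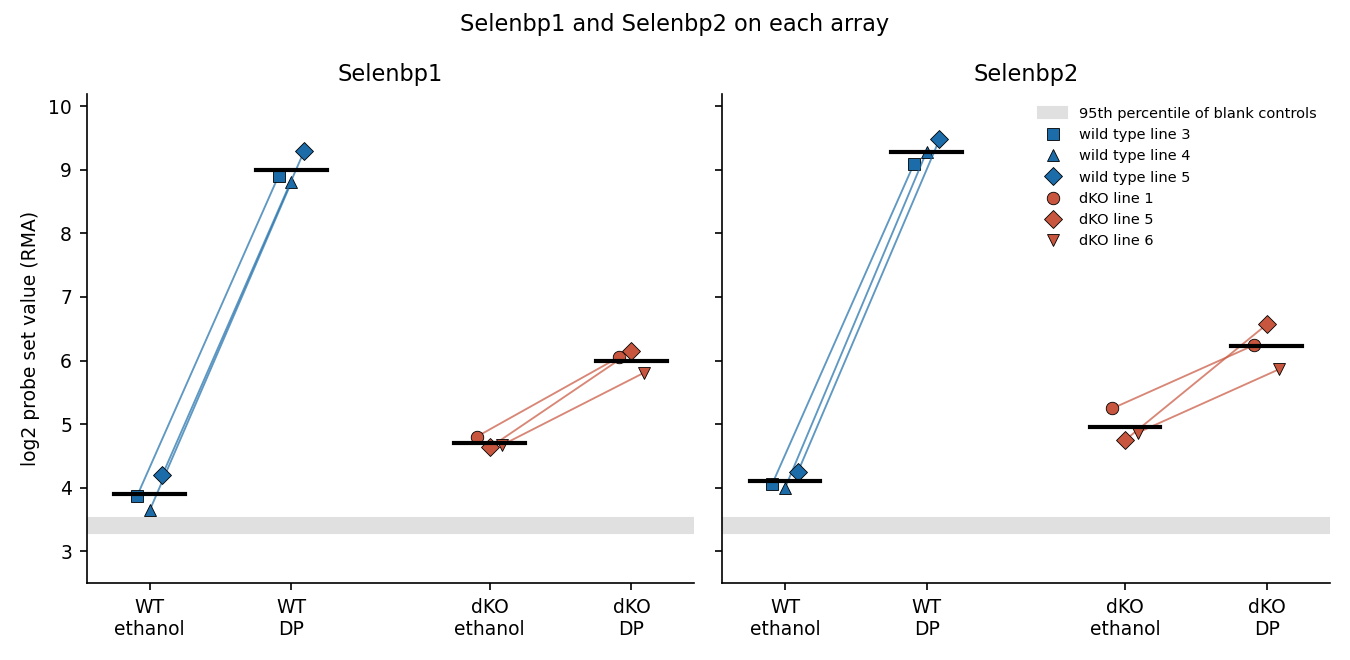
Log2 RMA value of Selenbp1 (left) and Selenbp2 (right) on each of 12 arrays, by genotype and treatment, with lines joining the arrays of 1 MEF line, black bars for group means (n = 3) and a grey band for the range of the blank controls' 95th percentile (3.28 to 3.53). All 3 wild-type lines climb from 3.64 to 4.25 with ethanol to 8.80 to 9.48 with DP, whereas the 3 dKO lines start at 4.63 to 5.25 and end at 5.81 to 6.57.

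In dKO cells both genes still went up with DP in every line, from a higher start to a lower end. Selenbp1 levels with ethanol were 4.81, 4.63 and 4.68 in lines 1, 5 and 6, and with DP they were 6.05, 6.14 and 5.81. The change was 1.25, 1.51 and 1.13 by line (SD 0.19, n = 3), and 1.30 ± 0.16 (SE) in the fit, or 2.46-fold. The treatments did not overlap, being 1.00 apart at the nearest arrays.

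Selenbp2 in dKO lines 1, 5 and 6 was at 5.25, 4.75 and 4.87 with ethanol and at 6.24, 6.57 and 5.87 with DP. Its change differed more between lines, with 1.00 in line 1, 1.82 in line 5 and 1.00 in line 6 (SD 0.47, n = 3). Line 5 had the largest change of both genes. The fitted change was 1.27 ± 0.18 (SE), or 2.41-fold, and the nearest arrays of the treatments were 0.62 apart. Selenbp1 ranked 68 and Selenbp2 72 from the top in this comparison, in which 1.50% of genes were called, 1.01% higher and 0.491% lower.

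The genotype difference therefore had opposite signs with and without DP. With ethanol, dKO arrays were above wild-type arrays for both genes, by 0.80 ± 0.16 (SE) for Selenbp1 (1.74-fold) and 0.85 ± 0.18 for Selenbp2 (1.81-fold). No array overlapped, with gaps of 0.43 and 0.50. How many of all genes separate in this way was not counted in any comparison, so nothing is read from a lack of overlap. This comparison called 33.6% of all genes, 19.5% higher and 14.1% lower in dKO, and the pair ranked 1177 and 1014 from the highest. The ethanol difference was thus of a size that many genes had.

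With DP the order was turned. Selenbp1 was lower in dKO by 8.00-fold (log2 difference -3.00 ± 0.16 SE) and Selenbp2 by 8.34-fold (-3.06 ± 0.18). The lowest wild-type array lay 2.66 above the highest dKO array for Selenbp1 and 2.53 above it for Selenbp2. The pair ranked 69 and 58 from the lowest, in a comparison that called 35.4% of genes, 18.5% higher and 16.9% lower in dKO. From low to high, both genes followed the order wild-type ethanol, dKO ethanol, dKO DP and wild-type DP, and no neighbouring groups in that order overlapped.

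The DP change was smaller in dKO than in wild type by 3.80 ± 0.22 (SE) for Selenbp1 and by 3.91 ± 0.25 for Selenbp2 on the log2 scale. These were the lowest 2 of 17097 differences, of which 0.562% were called. The largest dKO change in any line (1.51 for Selenbp1 and 1.82 for Selenbp2) was far under the smallest wild-type change (5.04 and 5.03). Across the 12 arrays the paralogs had a Pearson r of 0.997, a description of arrays that share 4 group means. Their changes within a line differed by -0.01, 0.13 and 0.14 in wild type and by -0.25, 0.31 and -0.13 in dKO (Selenbp2 minus Selenbp1), with no common direction in dKO.

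Relative to its wild-type size, the log2 change retained in dKO was 25.4% for Selenbp1 and 24.5% for Selenbp2. Among the 14 genes whose wild-type change was at least 3, the pair included, the retained share had a median of 60.0% and ran from 24.5% to 89.8%. Only the carbonic anhydrase gene Car12 (25.5%) was close to the pair, and the GTPase gene Rab33a came next (39.8%). At the other end stood Stc2, which encodes a secreted glycoprotein (89.8%), and Ankrd37, an ankyrin repeat gene induced by HIF (86.6%). These 14 genes were picked by the wild-type rise, so the shares are a description.

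Among HIF target genes listed for context, 17 of 18 were measured (P4ha1 was not analysed here) and their retained share had a median of 109% and ran from 15.8% to 345%. Car12 (25.5%), Slc2a3 and Ankrd37 (86.6%) are on this list. Its lowest share was that of Car9, another carbonic anhydrase gene (1.14 ± 0.22 SE in wild type and 0.18 ± 0.22 in dKO). The highest was that of Ldha (0.24 ± 0.09 in wild type and 0.82 ± 0.09 in dKO). The wild-type change of Ldha was not called (limma adjusted p = 0.187), so its share is a ratio to a small change. Both genes were named after their values were seen. Vegfa, the angiogenic growth factor, kept 131%, the glycolytic regulator Pfkfb3 148% and the mitophagy receptor gene Bnip3 170%. With DP, 15 of 17 rose in wild type and 16 of 17 in dKO, against 3.05% and 1.01% of all genes rising. Their medians were 2.01 and 2.28 against -0.03 and -0.05 over all genes. The list was chosen with earlier results of these data known, and most of its genes had been called there. Its calls are therefore context only and support nothing. The tested difference of responses called 3 of the 17 as larger in dKO and 2 as smaller, against 0.0468% and 0.515% of all genes; without 2 ethanol arrays that deviated from their groups (wild-type line 5 and dKO line 1) it called 8 in all. With ethanol, 15 of the 17 were lower in dKO and 0 higher (0 at unadjusted p under 0.05 in limma), with a median of -0.79, while the Selenbp pair was higher there. The pair rose with DP as these genes did, and its ethanol difference had the sign opposite to that of most of them.

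**Figure D2:**
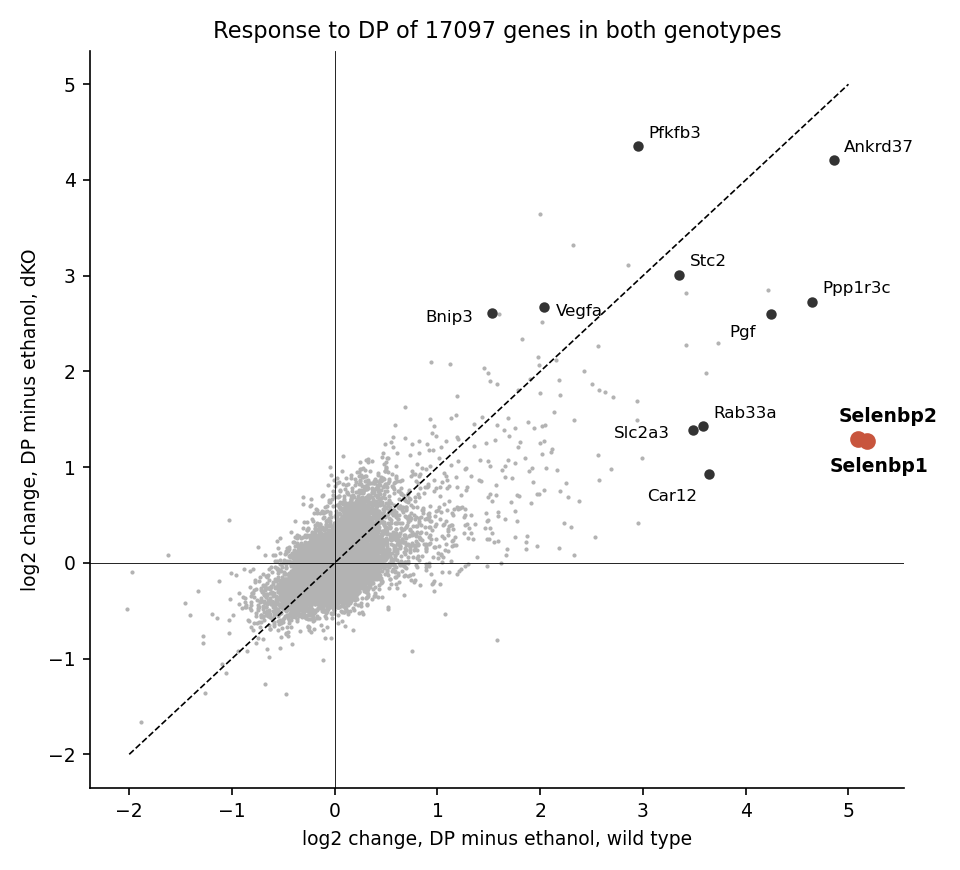
Log2 change with DP in wild-type cells (x axis) against dKO cells (y axis) for 17097 genes, with Selenbp1 and Selenbp2 in red, named comparison genes in black and a dashed line where both changes are equal. The pair lies furthest right, at 5.10 and 5.18 in wild type, but at only 1.30 and 1.27 in dKO, well under the dashed line, while Pfkfb3, Bnip3 and Vegfa lie above it.

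The 6 genes whose 12-array profile was most like the mean of the pair were Dpf1 (r = 0.99), Fam117b (0.99), Pcgf5 (0.99), Ripor2 (0.98), the glucose transporter gene Slc2a3 (0.98) and Helb (0.98). Of the 17095 genes searched, 21 had an r of at least 0.95. Dpf1 encodes a zinc-finger subunit of neuronal BAF chromatin remodelling complexes, Pcgf5 a Polycomb group RING-finger protein, Ripor2 an inhibitor of RHOA and Helb a DNA helicase. Being chosen for likeness, they are described with no test, and the points share their groups.

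As follows from that choice, all 6 had the same pattern of DP changes at a smaller size. Fam117b changed with DP by 2.69 ± 0.10 (SE) in wild type and 0.98 ± 0.10 in dKO, and Dpf1 by 2.23 ± 0.11 and 0.41 ± 0.11. Slc2a3 came nearest in size, with 3.49 ± 0.19 and 1.39 ± 0.19. With ethanol, too, the fitted dKO level was above wild type in all 6, by 0.10 (Ripor2, SE 0.13) to 0.41 (Dpf1, SE 0.11), against 0.80 and 0.85 in the pair. The ethanol arrays of the genotypes overlapped in Fam117b, Ripor2, Slc2a3 and Helb, and did not in Dpf1 and Pcgf5. Dpf1 also started near the blank controls, with a wild-type ethanol mean of 3.59.

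**Figure D3:**
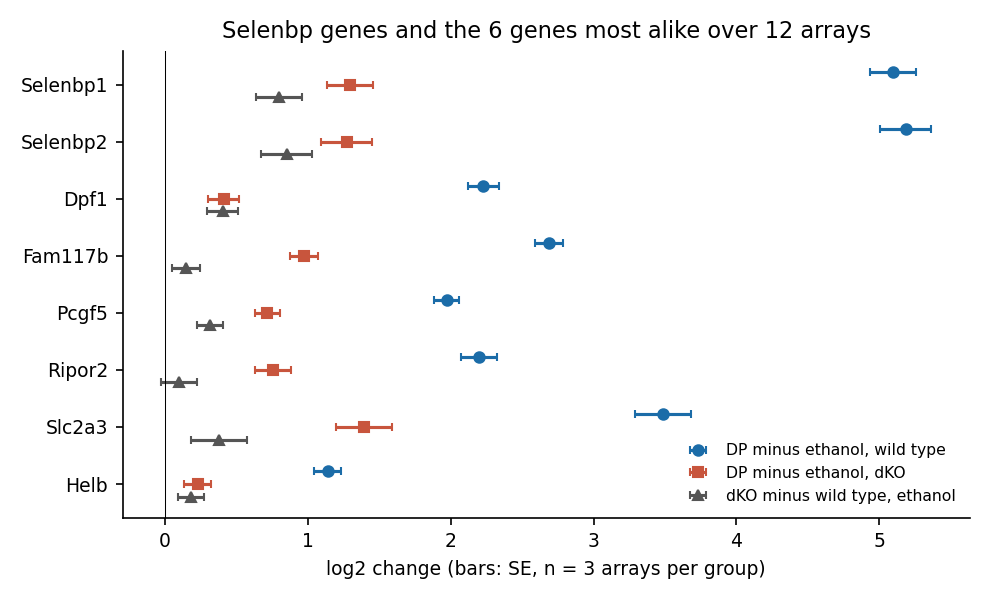
Fitted log2 changes of Selenbp1, Selenbp2 and the 6 genes most like them over the 12 arrays, with bars for SE (n = 3 arrays per group), for DP in wild type (circles), DP in dKO (squares) and dKO against wild type with ethanol (triangles). The wild-type DP changes of the 6 genes run from 1.14 (Helb) to 3.49 (Slc2a3), against 5.10 and 5.18 for the pair, and each gene's dKO change is the smaller.

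The genes around the pair did not share its DP change. The 6 nearest measured genes on each side of each member gave 15 neighbours. With DP, limma called 0 of 15 in wild type (0 also at unadjusted p under 0.05), with changes from -0.19 to 0.18. In dKO it called 0 (1 at unadjusted p under 0.05), with changes from -0.29 to 0.04, and 0 of the differences between genotypes (0 unadjusted). This held for the 3 measured genes between the paralogs, Cgn, Pogz and Psmb4, which encode the tight-junction protein cingulin, a chromatin-associated zinc-finger protein and a proteasome subunit.

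With ethanol, in contrast, 8 of the 15 neighbours were higher in dKO and 0 lower (0 also at unadjusted p under 0.05), against 19.5% and 14.1% of all genes, with a median of 0.29 against -0.01. Pogz was at 6.25 to 6.53 in wild type and 7.29 to 7.56 in dKO, a difference of 1.03 ± 0.11 (SE; limma adjusted p = 1.13e-05). The sorting nexin gene Snx27 differed by 0.73 ± 0.10 (0.000109), the lipid kinase gene Pip5k1a by 0.67 ± 0.08 (2.81e-05) and the tuftelin gene Tuft1 by 0.63 ± 0.12 (0.00106). Rfx5, a regulator of MHC class II genes, differed by 0.61 ± 0.11 (0.000745) and the zinc-finger gene Zfp687 by 0.58 ± 0.11 (0.000948). Of the other called neighbours, Psmd4 did not pass in 6 and Psmb4 in 2 of 21 alternative settings (limma adjusted p up to 0.168 and 0.0702). Both were lost without the ethanol array of wild-type line 3. The shares of all genes include dim genes. Higher ethanol levels in dKO were thus found both for the pair and for genes around it. With DP, 7 neighbours were higher in dKO and 1 lower, against 18.5% and 16.9% of all genes. The lower one was Celf3 (-0.30, adjusted p = 0.0476), which did not pass in 10 of 20 alternative settings, where its adjusted p reached 0.195. These include leaving out the ethanol array of wild-type line 4 or dKO line 5 or 6, the DP array of any wild-type line, or that of dKO line 5 or 6.

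**Figure D4:**
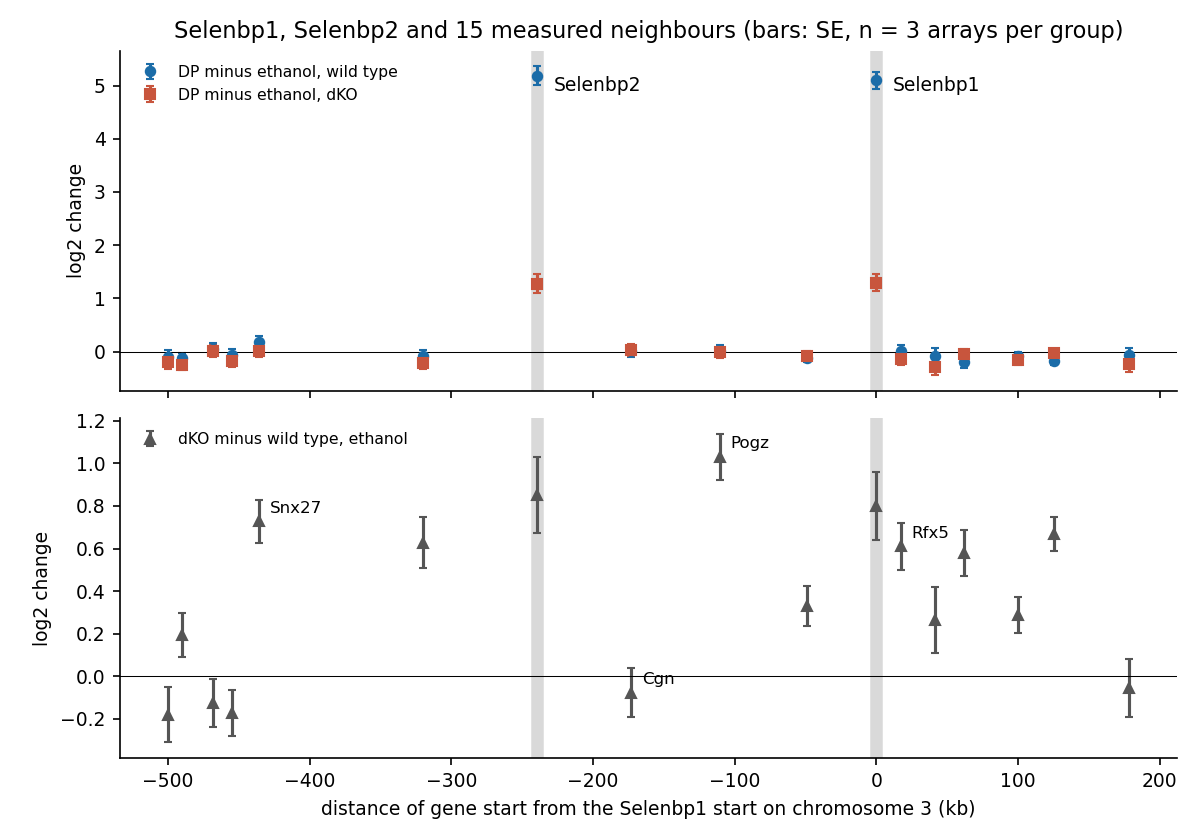
Log2 change with DP in both genotypes (top) and dKO against wild type with ethanol (bottom) for Selenbp1, Selenbp2 (grey bars mark both) and 15 measured neighbours, plotted by distance of each gene start from the Selenbp1 start in kb, with bars for SE (n = 3 arrays per group). With DP the pair stands at 5.10 and 5.18 in wild type while neighbours stay between -0.29 and 0.18 in both genotypes; with ethanol the pair (0.80 and 0.85) lies among neighbours that range from -0.18 to 1.03.

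Few genes of the selenium pathway were called with DP, as was the case for all genes. Of 24 selenoprotein genes, 23 were measured (Dio3 was not analysed here). In wild type 1 fell and 0 rose (0 rises and 4 falls at unadjusted p under 0.05 in limma), with a list median of -0.06 against -0.03; over all genes 3.05% rose and 1.67% fell. The one that fell was Sephs2, the selenophosphate synthetase that is itself a selenoprotein, from 7.88 to 8.12 with ethanol to 7.33 to 7.45 with DP (-0.59 ± 0.13 SE, adjusted p = 0.0156). It did not pass without the wild-type ethanol array of line 5 or the DP array of line 3 or 5 (adjusted p up to 0.0709). In dKO, where 1.50% of all genes were called, limma called 0 (3 falls unadjusted), with Sephs2 at -0.43 ± 0.13 (adjusted p = 0.147), and called 0 differences of response (0 unadjusted).

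Between genotypes selenoprotein genes were called in both directions. With ethanol 4 were higher and 7 lower in dKO, against 19.5% and 14.1% of all genes, with a median of -0.07 against -0.01; the count of higher genes is near that background. Selenop, the plasma selenium carrier, was at 8.14 to 8.47 in wild type and 9.62 to 10.3 in dKO (1.67 ± 0.16 SE, adjusted p = 5.12e-06). Selenoi, an ethanolamine phosphotransferase, was lower by -0.75 ± 0.09 (3.3e-05), the extracellular glutathione peroxidase gene Gpx3 by -0.74 ± 0.16 (0.00246) and the thioredoxin reductase gene Txnrd3 by -0.73 ± 0.17 (0.00481). The endoplasmic reticulum oxidoreductase gene Selenot (0.67 ± 0.20, 0.0215) and the mitochondrial reductase gene Txnrd2 (0.56 ± 0.15, 0.0108) were higher. Selenot was lost in 5 and Txnrd2 in 2 of 21 alternative settings, with adjusted p up to 0.0898 and 0.0969, the former without the ethanol array of wild-type line 5, dKO line 5 or dKO line 6. With DP 6 were higher and 7 lower, against 18.5% and 16.9% of all genes, Selenop again highest (1.74 ± 0.16, 3.35e-06) and Gpx3 lowest (-0.91 ± 0.16).

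**Figure D5:**
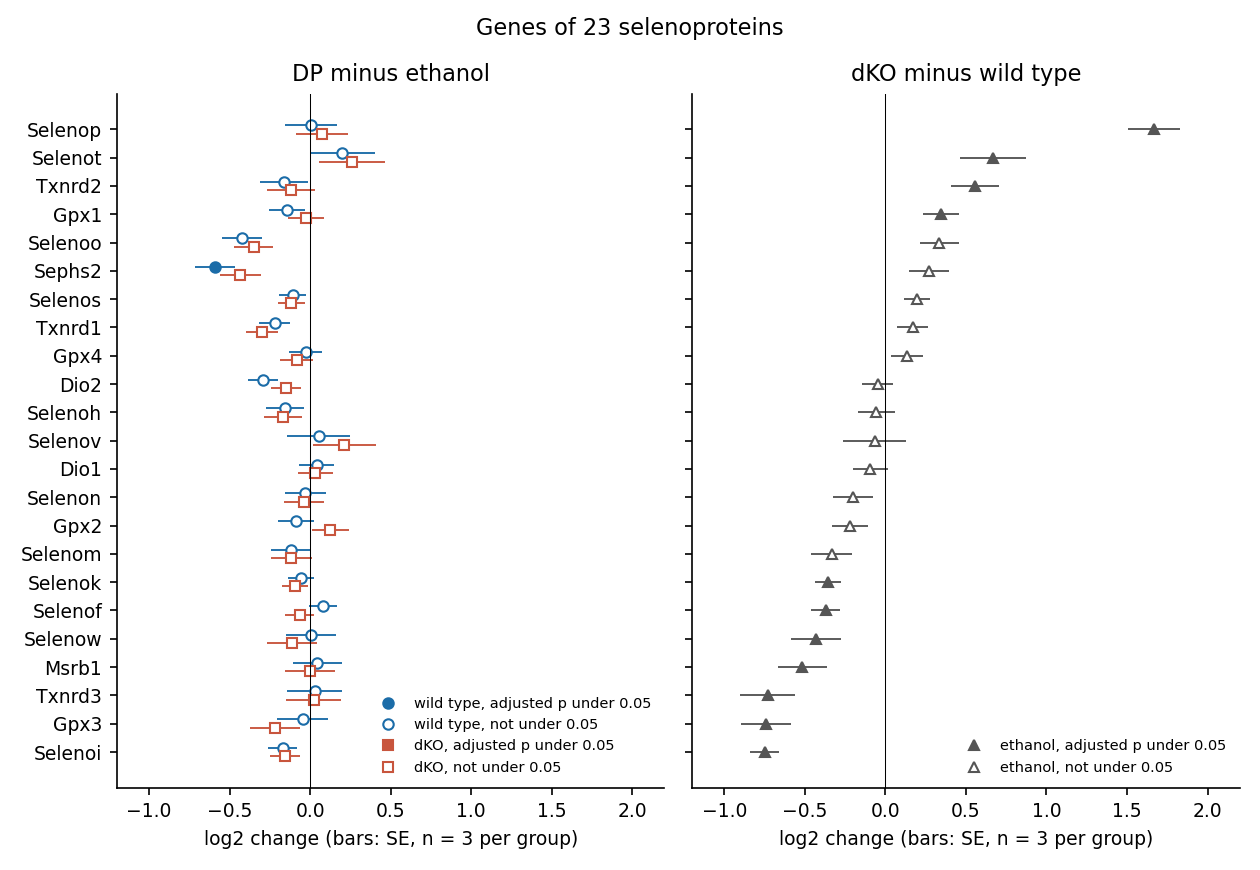
Log2 changes of the 23 measured selenoprotein genes, with bars for SE (n = 3 per group), for DP in each genotype (left) and for dKO against wild type with ethanol (right); filled symbols have a limma adjusted p under 0.05. With DP the changes lie between -0.59 and 0.26 and 1 symbol is filled (Sephs2, wild type), whereas 11 genes are filled on the right, from Selenoi at -0.75 to Selenop at 1.67.

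Genes of selenium uptake and selenocysteine insertion gave 8 of 10 measured (Trnau1ap and Lrp2 were not analysed here). With DP limma called 0 in wild type (1 at unadjusted p under 0.05) and 0 in dKO (2 unadjusted). The largest changes were those of the kinase gene Pstk in wild type (-0.29 ± 0.12, adjusted p = 0.274) and Secisbp2l in dKO (0.60 ± 0.30, 0.383). With ethanol 4 were higher and 2 lower in dKO, against 19.5% and 14.1% of all genes, with a median of 0.41 against -0.01. Lrp8, a receptor for selenoprotein P, was at 6.08 to 6.35 in wild type and 4.29 to 4.55 in dKO (-1.75 ± 0.13, 7.92e-07). Sepsecs, the selenocysteine synthase, was higher by 1.17 ± 0.18 (0.000216), the selenocysteine lyase gene Scly by 0.70 ± 0.12 (0.000396) and Secisbp2, which binds selenocysteine insertion elements, by 0.58 ± 0.10 (0.000519). Eefsec, the elongation factor, was higher by 0.47 ± 0.15 (0.0249) and Pstk lower (-0.48 ± 0.12, 0.00763); Eefsec did not pass in 5 and Pstk in 2 of 21 alternatives, Eefsec without the ethanol array of wild-type line 3 or 4 or dKO line 1 (adjusted p up to 0.203). Between genotypes with DP the count was 5 higher and 2 lower in dKO, against 18.5% and 16.9% of all genes.

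Genes that handle what the methanethiol oxidase uses and makes were not called with DP in the fit reported here. Of 21 genes of hydrogen sulfide and sulfur amino acid metabolism 20 were measured (Mat2a was not analysed here), and limma called 0 in wild type (4 at unadjusted p under 0.05) and 0 in dKO (5 unadjusted), where 4.73% and 1.50% of all genes were called. With cyclic loess, without the dimmest 40% of genes or with the mean of all probe sets, 1 was called in dKO. Suox, the sulfite oxidase, had the largest change, -0.38 ± 0.13 in wild type (adjusted p = 0.148) and -0.51 ± 0.13 in dKO (0.0766). With ethanol 5 were higher and 3 lower in dKO, near the 19.5% and 14.1% of all genes, with a list median of -0.06 against -0.01. Cysteine dioxygenase Cdo1 was lower, at 8.99 to 9.52 in wild type and 6.85 to 7.71 in dKO (-2.02 ± 0.23, 1.81e-05). Suox was higher by 1.60 ± 0.13 (1.22e-06), Mettl7a1, a thiol methyltransferase, by 1.39 ± 0.13 (3.62e-06) and Csad, which acts in taurine synthesis, by 1.02 ± 0.15 (0.000198). Ethe1, the persulfide dioxygenase, was lower (-1.32 ± 0.14, 1.16e-05), as was the hydrogen sulfide producing enzyme Cth (-1.12 ± 0.14, 3.48e-05). With DP 5 were higher and 4 lower in dKO, against 18.5% and 16.9% of all genes.

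Of 10 genes that remove hydrogen peroxide and formaldehyde, 8 were measured (Prdx5 and Prdx6 were not analysed here). With DP limma called 0 in either genotype (0 unadjusted in both); Aldh2 had the largest wild-type change (-0.23 ± 0.11, adjusted p = 0.332). With ethanol the mitochondrial aldehyde dehydrogenase gene Aldh2 was higher in dKO (0.76 ± 0.11, 0.000111), and the formaldehyde pathway gene Esd (-0.38 ± 0.09, 0.00342) and the peroxiredoxin gene Prdx4 (-0.35 ± 0.10, 0.0177) were lower. Esd did not pass in 1 of 21 alternatives (the mean of its probe sets) and Prdx4 in 4, 3 of them leaving out the ethanol array of wild-type line 5, dKO line 5 or dKO line 6 (adjusted p up to 0.0863). The tested difference of DP responses called 0 genes in each of these lists of the selenium and sulfur pathways (0 at unadjusted p under 0.05 in limma).

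Several other measures moved with genotype or DP, and their part in the Selenbp differences was not tested. All 9 fibroblast markers were lower in dKO with either treatment (summed level 14.9 to 15.01 in wild type, 13.6 to 13.9 in dKO). In such bulk samples fewer cells of a type and less RNA per cell cannot be told apart. With DP 0 fibroblast markers changed in either genotype (0 unadjusted, limma). Of the means of 6 hepatocyte markers in wild type, 4 with ethanol and 2 with DP lay at or under the group's highest blank 95th percentile. In dKO these counts were 3 and 4. The highest marker mean was 4.44 with ethanol and 4.39 with DP in wild type, and 4.74 and 4.57 in dKO. With DP 0 of 6 hepatocyte markers passed in either genotype (0 unadjusted). The summed hepatocyte level went from 6.09 to 6.32 with ethanol to 6.21 to 7.06 with DP in wild type, and from 6.25 to 6.46 to 6.01 to 6.27 in dKO. Krt19 and Fabp4 rose with DP in both genotypes, as 1 of 6 epithelial and 1 of 4 measured adipocyte markers. The summed epithelial level was 8.51 to 8.65 and 9.40 to 9.63 in wild type without and with DP, and 7.24 to 7.52 and 8.09 to 8.33 in dKO. The summed adipocyte level was 7.72 to 8.32 and 8.80 to 9.20 in wild type, and 6.27 to 6.604 and 7.21 to 7.33 in dKO. Limma called 0 macrophage or endothelial markers with DP (0 and 1 at unadjusted p under 0.05). Crebbp, the CBP gene, was lower in dKO with ethanol (-0.85 ± 0.16, adjusted p = 0.000992), while where its probes lie in respect of the deletion is not stated in the labels, and Ep300 was not analysed here. Xist was 10.3 to 10.7 in wild type and 3.94 to 5.32 in dKO. The Y-linked gene Eif2s3y was 2.49 to 3.29 in wild type and 7.08 to 8.93 in dKO, so sex and genotype cannot be told apart. The beta-actin 3' minus 5' difference, a measure of RNA quality, was 0.23 to 0.38 in wild type and 0.40 to 0.60 in dKO, and within each genotype it was higher on every DP array than on every ethanol array. The GAPDH 3' minus 5' difference did not show this separation by DP. It was -0.03 to 0.15 with ethanol and 0.04 to 0.17 with DP in wild type, and 0.19 to 0.21 and 0.10 to 0.19 in dKO. Between genotypes it was, like the beta-actin difference, higher on every dKO ethanol array than on every wild-type ethanol array. With DP its ranges in the genotypes overlapped. Line 5 of wild type and line 1 of dKO had ethanol arrays that deviated from their groups; without them the DP change was 5.24 and 1.35 for Selenbp1, and 5.26 and 1.42 for Selenbp2, in wild type and dKO.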

How the data were processed

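RNA of 12 cultures was hybridised to Affymetrix HT MG-430 PM arrays, and the deposited log2 values are RMA output of the authors (Affymetrix Expression Console, version 1.1, according to the submitters' processing notes). RMA summarises perfect-match probes after quantile normalisation and compresses changes near background. Of 45141 probe sets 104 were controls; 28898 listed 1 symbol (28689 updated through the gene ID), 551 several and 15588 none. Each of 17097 genes was given its probe set of highest mean (7180 had more than 1). Group means were fitted with limma 3.58.1 in R 4.3.3 on all 12 arrays, with Benjamini-Hochberg adjustment over all genes and a threshold of 0.05, after a check on simulated data. With 3 arrays a group, their number limits the precision.

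The members and lists were chosen with earlier results of these data known. Genes named in the text were Selenbp1 and Selenbp2, the 6 most and 3 least correlated genes, 6 HIF targets and 3 label checks. All called list members up to 6 were also named, otherwise the 6 of largest change, or the 2 of largest change where none was called. Rab33a, Stc2, Car9 and Ldha were added after their values were seen. List median changes are set beside the median over all genes. Summed marker levels are log2 of summed linear values. MEF lines pair the treatments, per the labels, which give the same line number to an ethanol and a DP array; over the 8917 genes averaging 5 or more the paired deviations correlated at 0.04 to 0.42, and 4 of 6 ethanol arrays correlated best with their own line. Separate lines are the replicates, per the labels. Alternatives were other scalings, filters, probe set rules, fits and leaving out arrays. Promoters were taken from RefSeq and aligned with Biopython 1.88 (both genes matched).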

Additional observations from a re-analysis of the deposited data

How the results depend on the processing

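All 10 Selenbp values kept their direction in the 17 alternatives run for each. Not all 17 could move a value, because in this balanced design the MEF line as a block left each value the same. The mean of all probe sets did too, as each gene had 1, and so did leaving out arrays of groups not compared. The values moved by less than the SD of levels between replicate arrays, pooled over the groups compared. The SD of the changes by line is smaller for Selenbp1 in wild type (0.06), and some alternatives moved that change by more than this. The DP change ranged from 4.95 to 5.24 (Selenbp1) and 5.09 to 5.28 (Selenbp2) in wild type, and from 1.23 to 1.39 and 1.101 to 1.45 in dKO. The genotype difference ranged from 0.61 to 0.95 and 0.65 to 0.96 with ethanol, and from -3.16 to -2.85 and -3.23 to -2.88 with DP. The difference of responses ranged from -3.95 to -3.65 and from -4.08 to -3.73. With the MEF line as a replicate block, which pairs the treatments, 807 and 267 genes were called for DP in wild type and dKO. Between genotypes the counts were 5720 and 6052 with ethanol and DP, and 89 genes were called for the difference. The Selenbp values themselves cannot change in that fit, and only their SE did.

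Genome-wide counts moved more. Leaving out 1 array at a time gave 538 to 1010 genes for DP in wild type against 808 (538 without the DP array of line 4) and 153 to 326 for DP in dKO against 256 (153 without the DP array of line 1, 160 without that of line 6). Fitting only the arrays compared gave 142 for DP in dKO. Between genotypes with DP, the fit of every probe set called 9227 of 28898 probe sets, against 6057 of 17097 genes. Those counts have different units and totals and cannot be set side by side. With cyclic loess the share of called genes that were higher was 45.9% against 58.1% between genotypes with ethanol, 42.1% against 52.4% with DP, and 77.6% against 67.2% for DP in dKO. Selenoprotein calls between genotypes with ethanol were 6 in the fit of only the arrays compared and 7 without the ethanol array of dKO line 6, against 11. Calls of selenium uptake genes between genotypes with DP were 3 without the DP array of dKO line 1, and 4 without that of wild-type line 3 or with cyclic loess, against 7. Calls of HIF targets for the difference of responses were 8 without the 2 deviating ethanol arrays, against 5. The cause of these moves was not tested. Wild-type ethanol levels of the pair lie close to background, which can limit their folds.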

Other observations

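The genes whose profiles ran most opposite to the mean of the Selenbp pair were Cdc42ep1 (r = -0.94 over 12 arrays), Champ1 (-0.93) and Ndufaf4 (-0.93). Cdc42ep1, which encodes an effector of the GTPase CDC42, changed with DP by -0.82 ± 0.11 (SE, n = 3 per group) in wild type and -0.34 ± 0.11 in dKO. Champ1, a chromosome alignment gene, changed by -0.47 ± 0.08 and -0.16 ± 0.08, and Ndufaf4, an assembly factor of respiratory complex I, by -0.51 ± 0.09 and -0.27 ± 0.09. All 3 were picked for this likeness in reverse, which held for the DP changes. With ethanol Champ1 was slightly higher in dKO (0.06 ± 0.08), as the pair was, and Cdc42ep1 and Ndufaf4 differed by -0.10 ± 0.11 and -0.08 ± 0.09.

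A RefSeq promoter entry was present for 13 genes with a wild-type rise of at least 3, the pair included. In the 300-base window 6 held ACGTG, 7 held GCGTG and 8 held either, against 19.6%, 32.4% and 43.8% of all windows. A gene was counted if any of its windows held the letters, whereas the shares are of windows. Both members of the pair, whose promoters are alike, are in each of these counts. Of the 5 genes most like the pair that had an entry, 3 held ACGTG and 4 held GCGTG.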
